A study of Mus musculus with 9 samples.

Results

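Secreted Wnt antagonists are proteins that cells release into their surroundings and that keep Wnt ligands or Wnt receptors from signalling. The 10 genes described here are Wif1, Sfrp1, Sfrp2, Sfrp4, Sfrp5, Frzb, Dkk1, Dkk2, Dkk3 and Sostdc1, out of 19084 genes with a probe on the array. They were chosen by name, with earlier results of these data known. Each was read through its brightest probe, the one with the highest mean log2 intensity over the 9 samples. RNA came from primary mouse knee chondrocytes in 3 groups of 3 samples. In the stiff ECM group the cells were kept on a gel with a Young's modulus of 100 kPa, and in the soft ECM group on a gel of 500 Pa. The group labelled normal has no modulus in its labels, and what its cells were grown on is not stated for these arrays. All labels give 24 h, while a figure legend of the paper gives a longer time for chondrocytes on these gels. According to the methods, the cells were taken by collagenase digestion from the knee cartilage of newborn Kunming mice and grown as a monolayer, and the gels were polyacrylamide coated with matrix protein, type I collagen in most of the study. No genotype or drug treatment is given for any group. The paper used the arrays to screen for genes that respond to the stiffness of the substrate, and then followed the Wnt pathway.

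Wnt ligands signal by joining a Frizzled receptor and the co-receptors Lrp5 or Lrp6, which spares β-catenin from destruction. Wif1 and the secreted Frizzled-related proteins, among them Sfrp1, Sfrp2, Sfrp4, Sfrp5 and Frzb, bind the ligand itself. Dkk1 and Dkk2 bind the Lrp5 and Lrp6 co-receptors, as does Sostdc1, which also binds bone morphogenetic proteins. Dkk3 shares the family's cysteine-rich build, but its place in Wnt signalling is less settled. In cartilage, antagonists such as Frzb and Dkk1 are known for limiting Wnt signalling in chondrocytes.

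The promoter sequence is shown for Wif1, the antagonist that passed the test between stiff and soft ECM, and for Dkk1, the only one of 6 antagonists searched whose promoter held the letters of the TCF/LEF motif through which β-catenin acts on genes. Of the 10 genes, 6 were in the RefSeq promoter table (build GRCm38.p6). The stretch is the 250 bases before the start of the gene, written 5′ to 3′ on the strand of the gene, with motif letters in capitals. The motif was searched as CTTTGAA or CTTTGAT and as CTTTGTA or CTTTGTT, on both strands.
Wif1, chr10:121033754-121034003, plus strand: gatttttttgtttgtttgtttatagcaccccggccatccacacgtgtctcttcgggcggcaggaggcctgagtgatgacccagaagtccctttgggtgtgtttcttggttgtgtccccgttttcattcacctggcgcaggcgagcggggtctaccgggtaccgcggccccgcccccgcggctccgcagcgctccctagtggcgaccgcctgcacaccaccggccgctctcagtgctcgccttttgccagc
Dkk1, chr19:30549497-30549746, minus strand: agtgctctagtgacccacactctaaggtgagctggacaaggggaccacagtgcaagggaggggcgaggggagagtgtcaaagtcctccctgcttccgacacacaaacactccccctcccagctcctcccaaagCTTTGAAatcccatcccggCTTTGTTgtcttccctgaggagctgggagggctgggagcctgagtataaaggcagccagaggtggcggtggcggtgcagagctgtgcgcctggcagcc
The Dkk1 stretch held 2 motifs, at 117 and 98 bases before the start, and those of Wif1, Sfrp2, Sfrp5, Frzb and Dkk2 held none. Of all 32851 promoters of this length in the table, 14.8% held at least 1 motif and 1.43% held 2 or more. These are matches of letters, and binding was not measured.

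The samples differed in more than the antagonists. The median intensity over all probes was 166 to 175 on the stiff ECM, 137 to 150 on the soft ECM and 124 to 179 in normal samples. Over 567 probes for olfactory receptors, genes of smell neurons that serve here as a gauge of near-silent genes, the median was 36.4 to 41.5 on the stiff ECM, 18.3 to 28.4 on the soft ECM and 10.3 to 34.8 in the normal samples. Dim probes thus stood higher on the stiff ECM than on the soft ECM, and over all 24942 tested probes the log2 fold change had a median of 0.18 between stiff and soft ECM, 0.09 between stiff ECM and normal and -0.09 between soft ECM and normal. Of 18 chondrocyte markers, 9 were within the range of the olfactory receptor probes (dimmer than their 95th percentile), and the cartilage genes Matn1 and Cnmd were near the olfactory receptor level, while Col2a1, the main cartilage collagen, and the chondrocyte transcription factor Sox9 were brighter than 99.8% and 99.5% of those probes. The summed intensity of the chondrocyte markers was 9830 to 10991 on the stiff ECM, 8940 to 10200 on the soft ECM and 17300 to 19015 in normal samples. Col2a1, named with Sox9 after its values were seen, held much of that difference, with means of 3889 on the stiff ECM, 3612 on the soft ECM and 9673 in normal samples. Sox9 had 656, 661 and 724 in the same order. Relative to normal, 3 of the 18 markers passed as lower on the stiff ECM and 2 on the soft ECM. Of all probes 5.14% and 3.21% did so. All 9 samples also carried skeletal muscle transcripts, with 20 of 22 muscle markers above that range. The summed intensity of the muscle markers was 204624 to 225451 on the stiff ECM, 283838 to 311446 on the soft ECM and 292582 to 336946 in normal samples. The part of these shifts in the results below was not tested. In RNA from whole cultures, fewer cells of a type and less RNA per cell cannot be told apart.

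Wif1 and Dkk3 were the antagonists that passed the test. Wif1 was lower on the stiff than on the soft ECM, and Dkk3 was lower on the stiff ECM than in the normal samples. Sfrp1 leaned the same way as Dkk3, with every gel sample below every normal sample, while Sfrp2 and Sostdc1 were above the normal samples on both gels, and none of these 3 passed. Frzb could not be tested, since 4 of its 9 values were at or below 0, which left 9 antagonists in the test. A gene passed when its limma p-value, adjusted by the Benjamini-Hochberg method over all tested probes, was under 0.05.

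**Figure D1:**
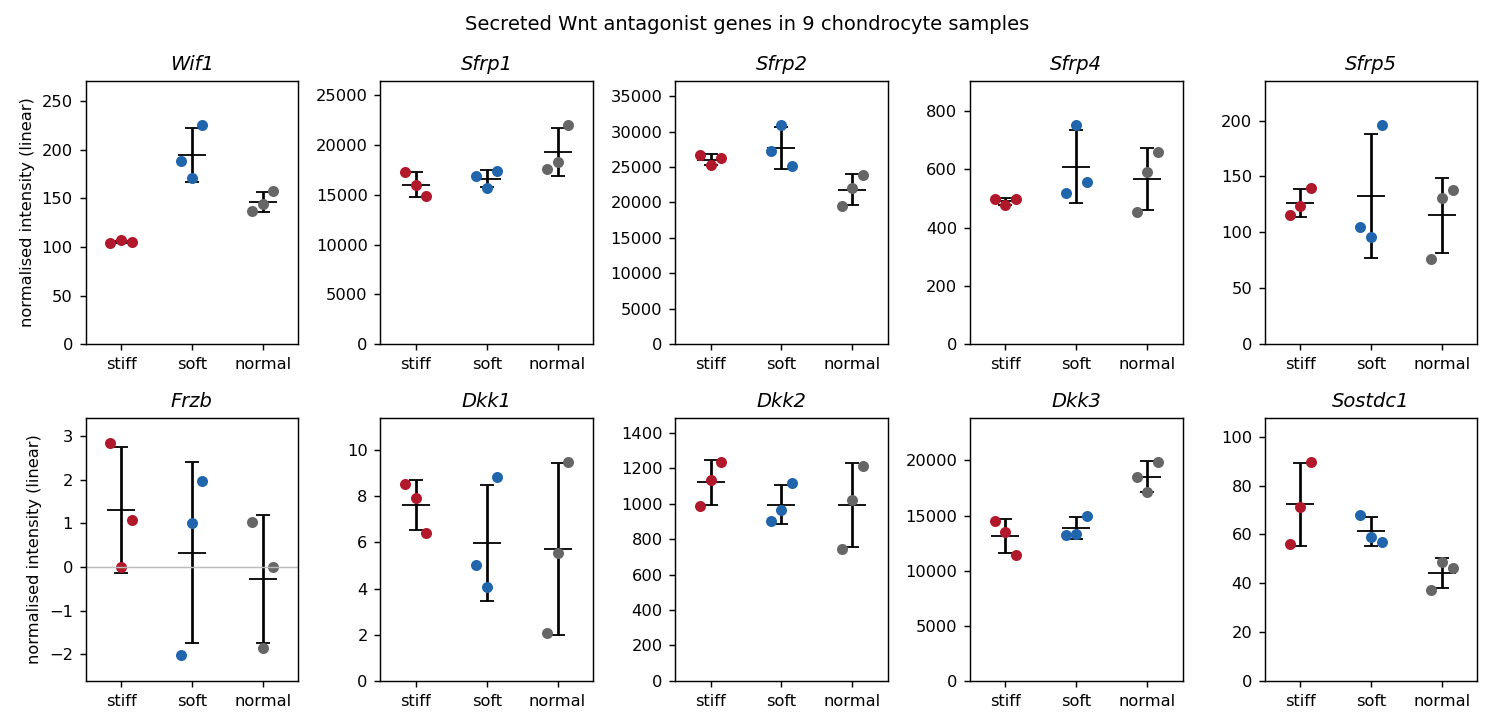
Intensity of each of the 10 antagonists (y axis, array intensity on a linear scale, each panel with its own range) in the 3 stiff ECM, 3 soft ECM and 3 normal samples. Points are samples, long horizontal lines are group means and whiskers are 1 SD (n = 3). The 3 stiff ECM samples of Wif1 lie at 104 to 107, below every soft ECM and normal sample, and the normal samples of Dkk3 lie above every sample on either gel.

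Between stiff and soft ECM, 0 antagonists passed as higher and 1 as lower, against 1.35% and 0.417% of all probes (1.77% in either direction). Groups that did not overlap were found for 0 antagonists higher and 2 lower on the stiff ECM, against 31.7% and 6.39% of all probes. Between stiff ECM and normal, 0 passed as higher and 1 as lower, against 4.8% and 5.14% of all probes (9.94% in either direction). There 2 antagonists were higher and 3 lower with no overlap, against 19.3% and 14.6% of all probes. Between soft ECM and normal, 0 antagonists passed limma, against 0.493% of all probes as higher, 3.21% as lower and 3.7% in either direction. There 3 antagonists were higher and 2 lower with no overlap, against 5.26% and 18.3% of all probes. At an unadjusted p under 0.05 in limma stood 1, 5 and 3 of the 9 antagonists in these comparisons, against 21.6%, 30% and 19.9% of all probes. The methods' t-test gave 0 antagonists after adjustment in each comparison, against 0.894%, 0.0802% and 0.0241% of all probes, and 1, 4 and 4 before adjustment, against 27.5%, 20.2% and 15.7%. The median log2 fold change over the 9 antagonists was -0.05 between stiff and soft ECM, 0.18 between stiff ECM and normal and 0.17 between soft ECM and normal. The 3 comparisons share their samples, so a high or low group enters 2 of them.

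**Figure D2:**
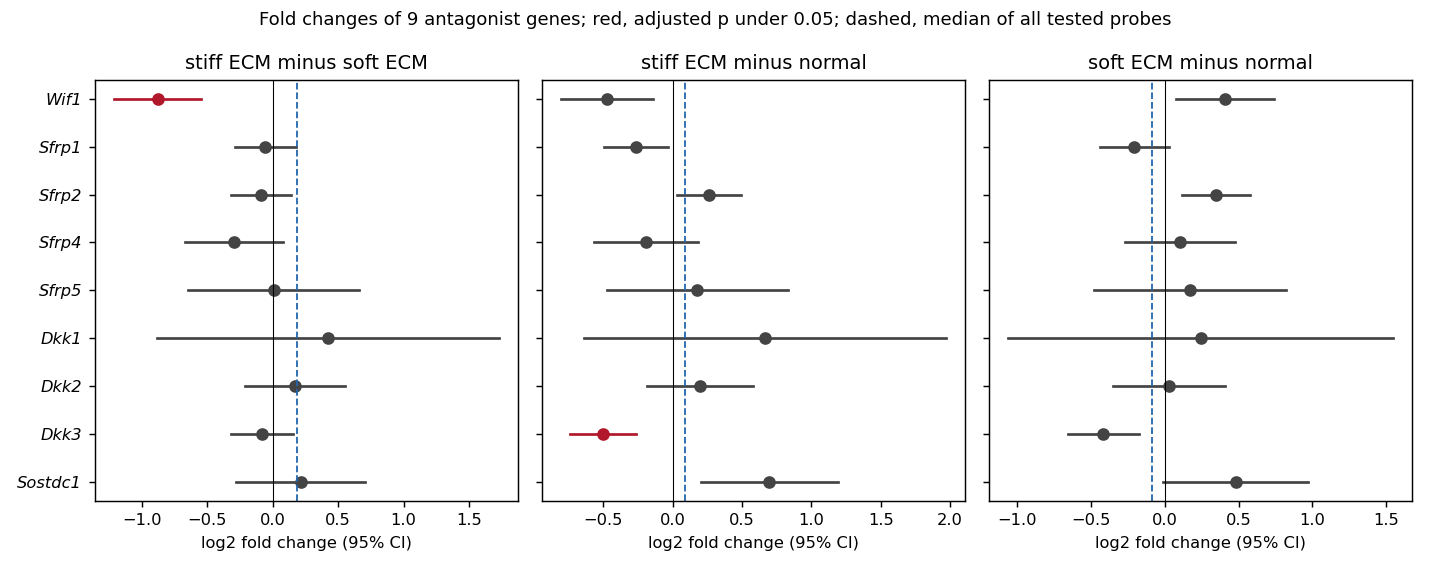
Log2 fold change of the 9 tested antagonists (y axis) in the 3 comparisons (x axis, log2 scale), with 95% confidence intervals from limma. Points and intervals are red for adjusted p under 0.05 and grey otherwise. The dashed line is the median of all tested probes, at 0.18 for stiff minus soft ECM, 0.09 for stiff ECM minus normal and -0.09 for soft ECM minus normal. The red points are Wif1 for stiff minus soft ECM and Dkk3 for stiff ECM minus normal.

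Wif1, the Wnt inhibitory factor, had intensities of 104, 107 and 105 in the 3 stiff ECM samples, 188, 171 and 226 in the soft ECM samples and 137, 144 and 157 in the normal samples. The 3 groups did not overlap in any pairing, with the stiff ECM lowest, the normal samples between and the soft ECM highest. The group means were 105 ± 1.31 on the stiff ECM, 195 ± 27.9 on the soft ECM and 146 ± 10.1 in normal samples (SD, n = 3 each). Wif1 fell by 0.88 on the log2 scale on the stiff ECM relative to the soft ECM (SE 0.15, 95% confidence interval -1.21 to -0.55, limma adjusted p = 0.024), a fold of 0.544. Probes of like brightness, in the same bin of 10 by intensity, had a median log2 fold change of 0.28 in that comparison, the opposite sign. Against the normal samples the log2 fold change of Wif1 was -0.47 for the stiff ECM (SE 0.15, limma adjusted p = 0.071) and 0.41 for the soft ECM (SE 0.15, limma adjusted p = 0.16), and neither passed. The Wif1 probe was brighter than 85.7% of the olfactory receptor probes, so its level stood in the upper part of their range and not clear of it.

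Whether the 3 samples of a group were separate cultures or animals is not stated. The p-values therefore rest on a spread that may be technical. The difference of Wif1 between stiff and soft ECM kept its direction in all 19 alternatives in which it was tested and passed in 11 of them. It was larger under the 3 normalizations, at -1.16 (quantile, adjusted p = 0.0034), -1.13 (median centring, 0.0027) and -1.11 (loess, 0.0057). Among the 8 alternatives that ended the call were the fits without stiff ECM replicates 1, 2 or 3 (adjusted p = 0.068, 0.13 and 0.070), without soft ECM replicates 1, 2 or 3 (0.075, 0.051 and 0.096) and the methods' t-test (0.057). With the same normalizations, in the same order, Wif1 also passed as lower on the stiff ECM than in the normal samples, at -0.67, -0.63 and -0.64 with limma adjusted p = 0.0075, 0.0092 and 0.0099.

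**Figure D3:**
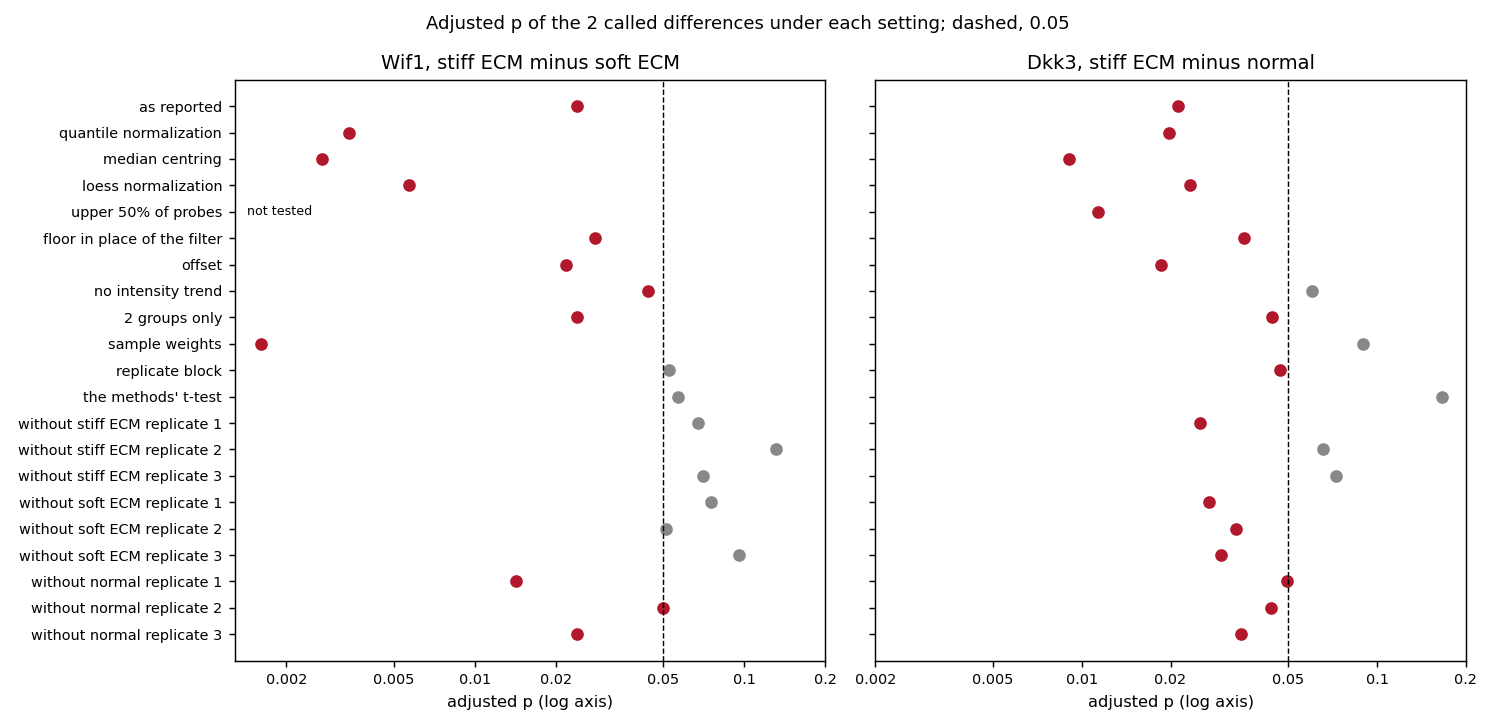
Adjusted p (x axis, log scale) of Wif1 for stiff minus soft ECM and of Dkk3 for stiff ECM minus normal, as reported and under each other setting (y axis). Red points are under 0.05, the dashed line, and grey points are not. Wif1 is at 0.024 as reported and at 0.051 to 0.13 when a stiff or soft ECM sample is left out, and Dkk3 is at 0.021 as reported and at 0.066 and 0.072 without stiff ECM replicates 2 and 3.

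Among the secreted Frizzled-related proteins, Sfrp2 and Sfrp1 were bright and lay on opposite sides of the normal samples. Sfrp2 had intensities of 26697.5, 25257 and 26213 on the stiff ECM, 27196, 30938 and 25085 on the soft ECM and 19452, 22074 and 23865 in normal samples. Every gel sample was above every normal sample, and the 2 gels overlapped. The log2 fold change of Sfrp2 against the normal samples was 0.26 for the stiff ECM (SE 0.10, limma adjusted p = 0.12) and 0.35 for the soft ECM (SE 0.10, limma adjusted p = 0.093). These missed the threshold but passed it after quantile normalization (0.41 and 0.46, adjusted p = 0.021 and 0.032) and loess normalization (0.42 and 0.45, adjusted p = 0.023 and 0.039). After median centring they were 0.11 and 0.44 with adjusted p = 0.57 and 0.091.

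Sfrp1, which binds Wnt ligands as Sfrp2 does, had intensities of 17315, 15949 and 14879 on the stiff ECM, 16910.1, 15668 and 17366 on the soft ECM and 17566, 18282 and 22039 in normal samples. Both gels were below all normal samples, and the gels overlapped each other. The log2 fold change against the normal samples was -0.26 for the stiff ECM (SE 0.11, limma adjusted p = 0.13) and -0.21 for the soft ECM (SE 0.11, limma adjusted p = 0.31). Of the settings tried, only median centring brought Sfrp1 past the threshold, between stiff ECM and normal (-0.42, adjusted p = 0.021). Between stiff and soft ECM the log2 fold change was -0.05 for Sfrp1 (95% confidence interval -0.29 to 0.18) and -0.09 for Sfrp2 (-0.31 to 0.14).

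Sfrp4 was lower in each stiff ECM sample than in each soft ECM sample, with 497, 478 and 498 on the stiff ECM, 519, 753 and 558 on the soft ECM and 453, 592 and 659.6 in normal samples. Its log2 fold change between stiff and soft ECM was -0.29 (SE 0.17, limma adjusted p = 0.33) and did not pass, and the normal samples spanned the range of both gels except the highest soft ECM sample. Sfrp5 had 116, 124 and 140.1 on the stiff ECM, 105, 95.7 and 196 on the soft ECM and 76.5, 131 and 138 in normal samples. All 3 groups of Sfrp5 overlapped, and its log2 fold change between stiff and soft ECM was 0.01 (95% confidence interval -0.64 to 0.66), a sign that turned after each of the 3 normalizations. Frzb, named for its frizzled-like ligand-binding domain and known from cartilage, was read at 2.85, 0 and 1.07 on the stiff ECM, -2.0, 1.02 and 1.96 on the soft ECM and 1.03, -1.84 and 0 in the normal samples. Its probe was brighter than 1.76% of the olfactory receptor probes, so no level of Frzb above background was read in any group.

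Among the Dickkopf genes, Dkk3 was far above the olfactory receptor range and was lower on both gels. It had intensities of 14469.6, 13519 and 11422 on the stiff ECM, 13258, 13311 and 15008 on the soft ECM and 18533, 17097 and 19900.3 in normal samples. Every normal sample was above every gel sample, and the 2 gels overlapped. The means were 13137 ± 1559 on the stiff ECM, 13859 ± 996 on the soft ECM and 18510.1 ± 1402 in normal samples (SD, n = 3 each). Dkk3 fell by 0.50 on the log2 scale on the stiff ECM relative to the normal samples (SE 0.11, 95% confidence interval -0.74 to -0.26, limma adjusted p = 0.021). The soft ECM gave -0.42 (SE 0.11, limma adjusted p = 0.061) and did not pass, and the 2 gels differed by -0.08 (95% confidence interval -0.32 to 0.16). The call between stiff ECM and normal held in 15 of 20 alternatives and ended without stiff ECM replicate 2 (adjusted p = 0.066) or 3 (0.072), with no intensity trend (0.060), with sample weights (0.089) and with the methods' t-test (0.17). The soft ECM passed against the normal samples when stiff ECM replicate 3 was left out (0.040) or only the brighter 50% of probes were tested (0.034).

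Dkk2 had intensities of 989, 1132 and 1238 on the stiff ECM, 901, 967 and 1117 on the soft ECM and 742, 1023 and 1214 in normal samples. All 3 groups overlapped, and its log2 fold changes were 0.17, 0.20 and 0.03 for stiff minus soft ECM, stiff ECM minus normal and soft ECM minus normal, with limma adjusted p of 0.57, 0.47 and 0.95. Dkk1, the best known antagonist of the Lrp5 and Lrp6 co-receptors, was read at 8.54, 7.91 and 6.42 on the stiff ECM, 5.01, 4.07 and 8.83 on the soft ECM and 2.07, 5.53 and 9.50 in normal samples. Its probe was brighter than 24.5% of the olfactory receptor probes, and a difference in Dkk1 was not detectable at this signal, with a 95% confidence interval of -0.88 to 1.73 on the log2 scale between stiff and soft ECM.

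Sostdc1, which binds both Lrp co-receptors and bone morphogenetic proteins, was the only antagonist with 2 probes. The brighter one had 56.0, 71.2 and 89.9 on the stiff ECM, 68.2, 59.0 and 56.9 on the soft ECM and 37.2, 48.9 and 46.4 in normal samples. Both gels were above all normal samples and overlapped each other. The log2 fold change against the normal samples was 0.70 for the stiff ECM (SE 0.22, limma adjusted p = 0.072) and 0.48 for the soft ECM (SE 0.22, limma adjusted p = 0.26). Probes of like brightness had a median of 0.30 between stiff ECM and normal. The dimmer probe had 37.0, 39.6 and 48.1 on the stiff ECM, 12.0, 15.3 and 32.4 on the soft ECM and 9.30, 20.3 and 12.7 in normal samples. There the stiff ECM stood above both other groups, with a log2 fold change of 1.63 against the normal samples (limma adjusted p = 0.034) and of 1.19 against the soft ECM (limma adjusted p = 0.14). Of the olfactory receptor probes 64.9% were dimmer than the first and 47.1% dimmer than the second, in the dim range where the stiff ECM samples were raised as a whole.

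The profile over the 9 samples was compared with those of 9272 genes above the 95th percentile of the olfactory receptor probes for Wif1, and 9271 for Dkk3. Likeness was the root mean square difference of log2 intensities, each gene centred on its own mean. The genes nearest to Wif1 were Cox8b (difference 0.088), a subunit of cytochrome c oxidase found in muscle, Tnni1 (0.12), the troponin I of slow skeletal muscle, and Parm1 (0.13), a mucin-like membrane protein. Tnni1, 1 of the 22 muscle markers, averaged 25275 on the stiff ECM, 42517 on the soft ECM and 34620.1 in normal samples. It was picked for its likeness to Wif1, so its order of groups follows from that choice. Most muscle markers differed from it there: 4 of the 22 had a log2 fold change above 0 between soft ECM and normal (median -0.23). The genes nearest to Dkk3 were Stambpl1 (0.047), a deubiquitinase, Hspb7 (0.051), a small heat shock protein of heart and skeletal muscle, and Pld3 (0.065), a member of the phospholipase D family. Hspb7 averaged 1596 on the stiff ECM, 1771 on the soft ECM and 2293 in normal samples. Of the 22 muscle markers, 5 passed as lower on the stiff than on the soft ECM, 17 on the stiff ECM than in the normal samples and 3 on the soft ECM than in the normal samples, against 0.417%, 5.14% and 3.21% of all probes, and none passed as higher. Of 11 markers of fibroblasts, perichondrium and tendon, 5 passed as lower on each gel than in the normal samples, not all the same genes. In each of these comparisons 2 of the 11 had a log2 fold change above 0. The summed intensity of the 11 was 179094 to 182276 on the stiff ECM and 184807 to 192578 on the soft ECM. In normal samples it was 199972 to 234916. Of 5 markers of the synovial lining and superficial zone 1 passed, Prg4, the lubricin gene. Prg4 was lower on the stiff ECM than on the soft ECM (log2 fold change -1.01, limma adjusted p = 0.017). It was also lower on the stiff ECM than in the normal samples (-1.28, limma adjusted p = 0.0028). The list did not share this direction, since 3 of its 5 markers had a log2 fold change above 0 in each of these comparisons. Of all probes, 1.35%, 4.8% and 0.493% passed as higher for stiff minus soft ECM, stiff ECM minus normal and soft ECM minus normal. Of 9 macrophage markers 1 passed as higher on the stiff ECM than in either other group. A log2 fold change above 0 was found for 7 of them for stiff minus soft ECM and 4 for stiff ECM minus normal. Of 5 adipocyte markers 1 passed as higher on each gel than in the normal samples, and all 5 had a log2 fold change above 0 there. None of 6 endothelial or 8 hypertrophic and osteoblast markers passed limma (at most 1 and 2 at an unadjusted p under 0.05 in a comparison). The methods' t-test gave 1 endothelial marker after adjustment, between stiff and soft ECM, and 0 of both lists otherwise, with at most 2 of each before adjustment. The part of these markers in the levels of Wif1 and Dkk3 was not tested.

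**Figure D4:**
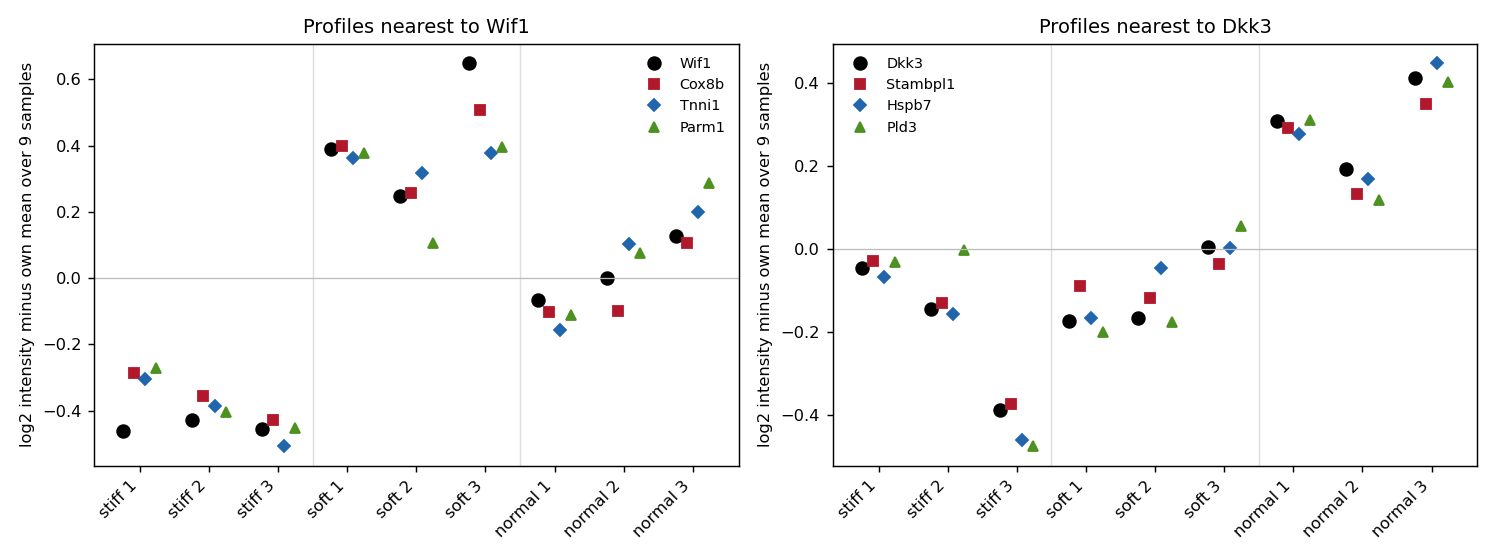
Log2 intensity minus the gene's own mean over the 9 samples (y axis) in each stiff ECM, soft ECM and normal sample (x axis), for Wif1 and its 3 nearest genes and for Dkk3 and its 3 nearest genes. Each symbol is 1 gene in 1 sample. The Wif1 set is low on the stiff ECM and high on the soft ECM, and the Dkk3 set is high in the normal samples. The genes were picked for this likeness, so the shared order follows from the choice.

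The other Wnt genes were read from lists of ligands, receptors, membrane partners of the antagonists, further extracellular inhibitors and β-catenin targets. The list of membrane partners held the Kremen proteins to which Dickkopf proteins attach, and the R-spondins with the Lgr receptors and the ubiquitin ligases Rnf43 and Znrf3 through which they act. Of its 10 tested genes none passed limma in any comparison, with 3, 2 and 2 of them at an unadjusted p under 0.05 for stiff minus soft ECM, stiff ECM minus normal and soft ECM minus normal. Of all probes 21.6%, 30% and 19.9% had such a p. The methods' t-test gave 0 after adjustment and 1, 3 and 1 before it, against 27.5%, 20.2% and 15.7% of all probes before it. Of 10 other extracellular inhibitors none passed limma either, with 2, 2 and 4 at an unadjusted p under 0.05, and the methods' t-test gave 0 after adjustment and 2, 1 and 3 before it. The shares of all probes are the same as above. Of 19 Wnt ligand genes 1 passed, Wnt2b, which was higher on the stiff ECM at 181 ± 18.2 than in the normal samples at 121 ± 9.21 (SD, n = 3 each). Of all probes 4.8% passed as higher in that comparison. The Wnt2b probe was brighter than 84.0% of the olfactory receptor probes, within the dim range where the stiff ECM samples stood higher. The log2 fold change of Wnt2b was 0.58 (limma adjusted p = 0.035), and it passed in 7 of 19 alternatives (adjusted p = 0.025 to 0.14) and in none of the 3 normalizations. The call ended without stiff ECM replicates 2 or 3, soft ECM replicates 2 or 3, or normal replicate 2. On the soft ECM Wnt2b averaged 115 ± 2.36, and between stiff and soft ECM it had 0.65 (limma adjusted p = 0.052) and did not pass. There 16 of the 19 ligands had a log2 fold change above 0, against 70.6% of all probes.

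Of 16 tested receptor genes 2 passed as lower on each gel than in the normal samples, Fzd6, a Frizzled receptor, and Ryk, a Wnt receptor of the tyrosine kinase fold. Of all probes 5.14% passed as lower on the stiff ECM than in normal samples and 3.21% on the soft ECM. Fzd6 averaged 276 ± 16.7 on the stiff ECM, 235 ± 5.31 on the soft ECM and 378 ± 32.9 in normal samples (SD, n = 3 each), with log2 fold changes of -0.45 and -0.68 against normal (limma adjusted p = 0.042 and 0.017). Ryk had -0.35 and -0.38 (limma adjusted p = 0.041 and 0.049). These calls held in 7 and 14 of 20 alternatives for Fzd6 and in 7 and 4 of 20 for Ryk, for the stiff and the soft ECM, with adjusted p up to 0.14 and 0.11 for Fzd6 and 0.18 and 0.32 for Ryk. Leaving out any stiff or soft ECM sample, or normal replicates 2 or 3, ended the call of Fzd6 on the stiff ECM, and soft ECM replicates 2 or 3 or normal replicate 2 that on the soft ECM. The calls of Ryk ended without 6 and 8 of the 9 samples, each left out in turn. No receptor gene passed between stiff and soft ECM, where 0 had an unadjusted p under 0.05 and the methods' t-test gave 1 unadjusted and 0 adjusted. Of all probes 21.6% had an unadjusted p under 0.05 there in limma and 27.5% in the methods' t-test.

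Of 18 tested β-catenin feedback and target genes, 1 passed as higher between stiff and soft ECM, 3 as lower between stiff ECM and normal and 2 as lower between soft ECM and normal. Of all probes 1.35%, 5.14% and 3.21% passed in those directions. Tnfrsf19, a receptor of the tumour necrosis factor family, averaged 223 ± 22.2 on the stiff ECM, 292 ± 17.9 on the soft ECM and 405 ± 48.9 in normal samples (SD, n = 3 each). It fell by 0.86 on the log2 scale between stiff ECM and normal (limma adjusted p = 0.0076) and kept that call in 18 of 20 alternatives. Ccn4, a secreted matricellular protein, had -0.61 (limma adjusted p = 0.015) and Myc, a growth-promoting transcription factor, -0.63 (limma adjusted p = 0.016) in that comparison, each kept in 16 of 20 alternatives. Both calls ended without stiff ECM replicate 2 or normal replicate 2, with adjusted p over the alternatives up to 0.13 for Ccn4 and 0.10 for Myc. Between soft ECM and normal the genes were Myc at -0.63 (limma adjusted p = 0.024) and Vegfa, a vascular growth factor, at -0.48 (limma adjusted p = 0.024), kept in 8 and 9 of 20 alternatives. Vegfa was also the gene that was higher on the stiff than on the soft ECM, a call kept in 10 of 20 alternatives. Leaving out each sample in turn ended that call for 6 of the 9, and the calls between soft ECM and normal for 4 each.

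**Figure D5:**
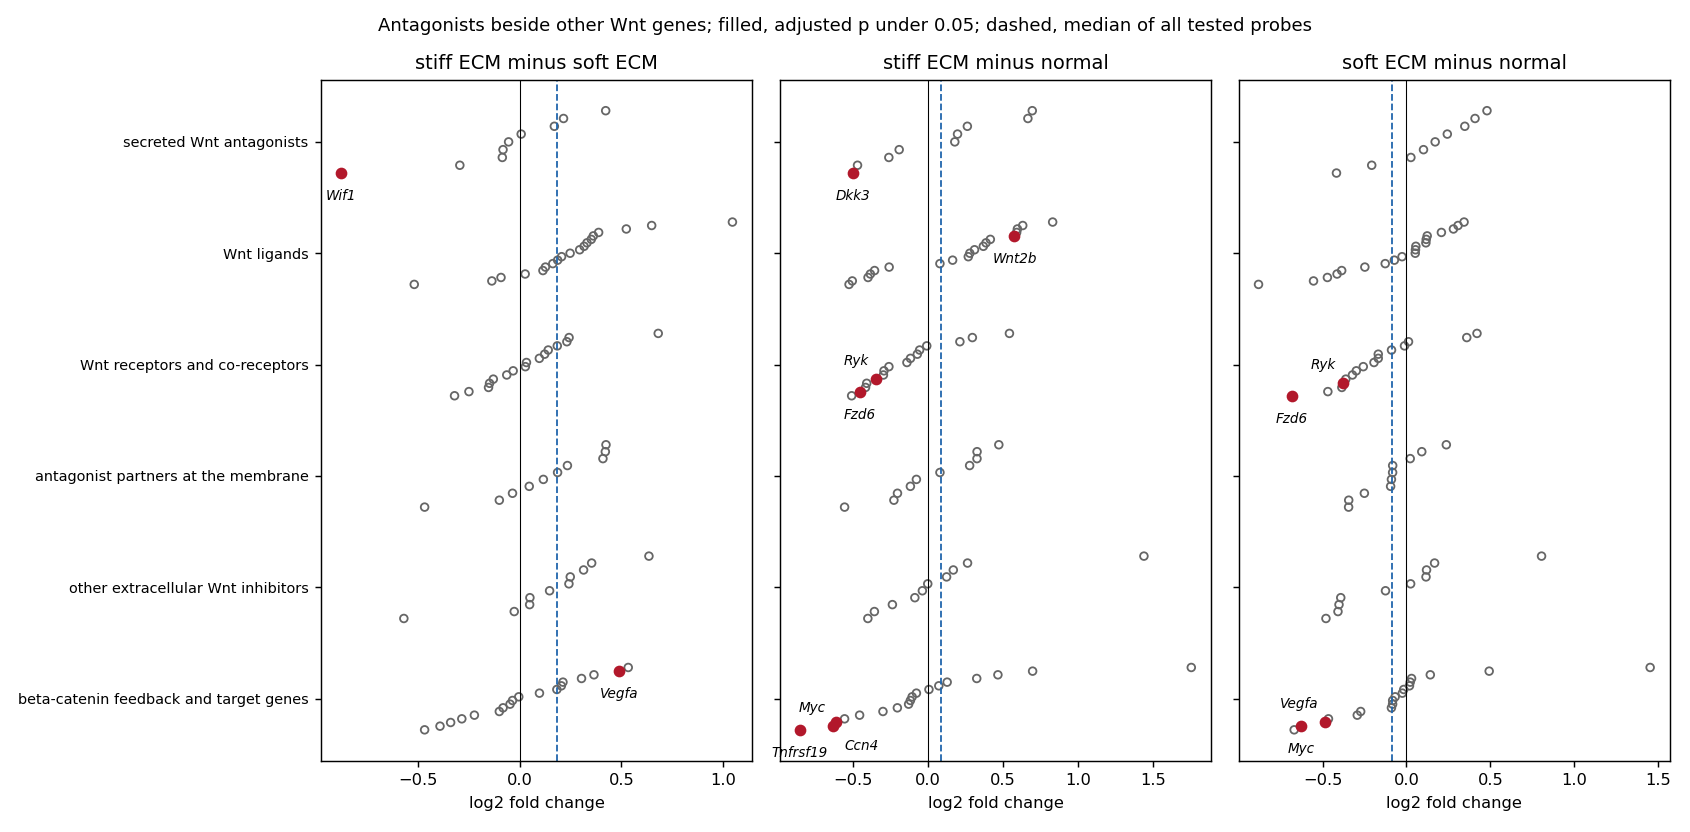
Log2 fold change (x axis) of each tested gene of 6 lists of Wnt genes (y axis) in the 3 comparisons, with 1 point per gene ordered by its value within the list. Filled points have a limma adjusted p under 0.05 and carry the gene's name, and the dashed line is the median of all tested probes. Wif1 is the only filled antagonist for stiff minus soft ECM and Dkk3 for stiff ECM minus normal, and no antagonist is filled for soft ECM minus normal.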

How the data were processed

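RNA of 9 samples was labelled with Cy5 and hybridised by the authors to Phalanx Mouse OneArray v2 arrays, 2 arrays per sample. The deposited values are intensities on a linear scale, which per the methods the authors filtered for flagged spots and control probes, scaled by the median in Rosetta Resolver (its version is not stated) and averaged over the 2 arrays. Below 1000, 100% of the values of each sample were multiples of a fixed step to within 0.02 of it (steps of 0.922 to 1.07), which averages of 2 separately scaled arrays would in general not be, so whether the values are such averages is not known. The sample medians still differed. Values ran from -8.27 to 70058, and at or below 0 no log exists, so 24942 of 26423 probes, above 0 in all 9 samples, were tested.

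Log2 intensities were fitted with limma 3.58.1 in R 4.3.3 (lmFit, then eBayes with an intensity trend) on 3 group means without further normalization, and p-values were adjusted by the Benjamini-Hochberg method over all tested probes, with a threshold of 0.05. For the arrays, the methods name error-weighted modelling in Rosetta Resolver, with P under 0.05 and a log2 fold change of at least 1 either way. That test was not rerun here. The script was tested on simulated data. Groups came from the sample labels. Gene names came from the platform annotation, where 21876 probes had 1 gene symbol and 4547 had none, and symbols were updated through gene IDs. Named genes were all 10 antagonists, the genes of each Wnt list that passed (up to 4 per list and comparison) and the 3 nearest profiles of each antagonist that passed. Marker lists of 8 cell types are given by counts, and the chondrocyte, muscle and fibroblast lists also by sums. The antagonists and lists were chosen with earlier results of these data known. The alternatives were 3 normalizations (quantile, median centring, loess), the brighter 50% of probes, a floor of 3.21 in place of the filter, an added offset of 36.0, no intensity trend, 2 groups only, sample weights, the replicate number as a block, the other Sostdc1 probe, leaving out each sample, and the t-test that the methods name elsewhere (the methods' t-test). Depth has no meaning for arrays, and 3 samples per group limit the precision.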

Additional observations from a re-analysis of the deposited data

How the results depend on the processing

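Over 27 values (9 antagonists in 3 comparisons) and 531 recomputed values, 482 kept their direction and side of the threshold, 13 kept the direction but lost the call, 11 gained one and 25 changed sign, none of them in a called difference. Between stiff ECM and normal the antagonists that passed numbered 3 after quantile normalization, median centring or loess normalization and 0 with no intensity trend, sample weights or the methods' t-test. Between stiff and soft ECM the number was 0 in the brighter 50% of probes, where Wif1 was not tested, and with the methods' t-test. Between soft ECM and normal it was 1 after quantile or loess normalization and in the brighter 50%. Leaving out 1 sample gave 0 to 1 in each comparison. The causes were not tested. Sample weights gave normal replicate 2 a weight of 0.0254, from an estimate that stopped before convergence.

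The same-numbered samples of 2 groups had correlations of their deviations from -0.22 to 0.13, and differently numbered samples from -0.23 to 0.19. Whether same-numbered samples share an animal, culture or batch is not stated. With so few samples per group these correlations cannot decide it. With the replicate number as a block, the antagonists that passed between stiff and soft ECM numbered 0 (Wif1 at adjusted p = 0.053), and over all probes 102 passed as higher and 30 as lower, against 337 and 104 without it. Over all probes that comparison split into 469 higher and 700 lower under quantile scaling, 206 and 1274 under median centring and 421 and 565 under loess.

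The log2 fold change between stiff and soft ECM became -0.25, -0.24 and -0.24 for Sfrp5 and -0.072, -0.032 and -0.10 for Sostdc1 under quantile, median and loess scaling, in that order. For Sfrp5 it was also -0.0057 with the offset and -0.10 with sample weights, for Dkk2 -0.077 after median centring and for Dkk1 -0.014 after loess normalization. Between stiff ECM and normal Sfrp5 became -0.037 and -0.018 after quantile and loess normalization. Leaving out 1 sample gave -0.19 to 0.33 for Sfrp5 and -0.16 to 0.016 for Dkk3 between stiff and soft ECM, and -0.093 to 0.33 for Sfrp5 between stiff ECM and normal. Between soft ECM and normal it gave -0.060 to 0.22 for Sfrp4, -0.15 to 0.37 for Sfrp5, -0.36 to 0.74 for Dkk1 and -0.17 to 0.19 for Dkk2.

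Of the antagonist probes, 5 were within the range of the olfactory receptor probes (Wif1, Sfrp5, Frzb, Dkk1 and Sostdc1), which limits what their differences can show.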
